A study of Mus musculus with 2 samples.

Results

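Among leukocytes sorted from mouse tumours, 363 of 36259 filtered droplet barcodes held the transcripts of a CD8 T cell and, in the same barcode, a sizeable amount of macrophage RNA. They are called mixed barcodes here. There were 146 of 15844 in the library labelled Ythdf2 KO (0.922%, exact 95% binomial interval 0.779 to 1.08) and 217 of 20415 in the WT library (1.06%, 0.927 to 1.21). The rule asked for at least 200 genes and at most 10% mitochondrial UMIs (unique molecular identifiers, 1 per captured transcript). It further asked for at least 2 UMIs of Cd8a and Cd8b1 together, at least 2 of Cd3d, Cd3e and Cd3g, and at most 1 of the NK cell genes Ncr1, Klrb1c and Klre1. The macrophage part of the rule was at least 20 UMIs per 10000 of C1qa, C1qb, C1qc, Csf1r, F13a1 and Ms4a6c, and no doublets were removed. The barcodes were thus chosen by measured values of these 14 genes, whose values below are a description.

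The first library was made from CD45+ cells (CD45 is the surface protein shared by leukocytes) of Ythdf2 KO tumours, and the second from CD45+ cells of WT tumours, both from C57BL/6 mice. Ythdf2 encodes a reader of the m6A mark on mRNA. Tumours were digested with collagenase IV and DNase and red cells were lysed before the sort. Age, sex and tumour type are not given in the sources used here. The series' design text speaks of conditional knockout animals, and neither the deleted part of the gene nor the cells that carry the deletion are given in the sources used here. With 1 library per genotype, no difference between the libraries has a replicate check, no test was possible, and every interval below covers counting error only.

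A CD8 T cell recognises peptides on MHC class I through a T cell receptor that signals through the CD3 chains, with CD8 as its co-receptor, and kills by releasing perforin and granzymes. Macrophages engulf dead cells and debris, make the complement protein C1q, depend on the receptor encoded by Csf1r, and in tumours often lie in contact with T cells. In droplet sequencing a barcode stands for 1 droplet: it can hold RNA of a single cell, of cells that entered the droplet together, or of free RNA in the suspension.

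The mixed barcodes made up a large share of the CD8 T barcodes. Of all barcodes that met the T cell, CD8 and NK conditions, 146 of 324 in the Ythdf2 KO library (45.1%, 39.6 to 50.7) and 217 of 423 in the WT library (51.3%, 46.4 to 56.2) passed the macrophage threshold. The difference of -6.24 percentage points had an interval of -13.6 to 1.18. Without the 8% of barcodes with the highest doublet scores it was -8.25 points (-16.2 to -0.182), and without the NK limit -6.85 points (-12.7 to -0.969). These intervals cover the counting of barcodes in single libraries and do not test genotype. The difference as a share of all filtered barcodes was -0.141 points (-0.349 to 0.0696). The macrophage threshold cut through a continuous range. In the Ythdf2 KO library 20 barcodes lay at 20 to 25 UMIs per 10000 and 25 at 15 to 20, and in the WT library 16 and 30 lay in these ranges. At the CD8 limit, 21 Ythdf2 KO and 37 WT mixed barcodes had exactly 2 UMIs, while 36 and 56 barcodes met the rest of the rule with 1. The NK limit left out 202 Ythdf2 KO and 222 WT barcodes that met the CD8 and Cd3 conditions. The mitochondrial limit left out 1 and 0 barcodes that met the rest of the rule. Of the deposited barcode sequences, 101 occurred in both libraries. None of these was a mixed barcode in both, and 2 mixed barcodes carried a sequence that the other library also held.

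Both kinds of markers were spread over nearly all mixed barcodes. Cd8a was found in 143 of 146 Ythdf2 KO and 204 of 217 WT mixed barcodes, Cd8b1 in 125 and 186, and both together in 122 and 173. Cd3e, a signalling chain of the receptor complex, was found in 138 and 195. C1qa was found in 136 and 207, at least 1 C1q gene in 143 and 214, and Csf1r in 114 and 176. Genes outside the rule showed the same pairing. Trac, the constant part of the T cell receptor alpha chain, had UMIs in 134 Ythdf2 KO and 198 WT mixed barcodes. The macrophage genes Fcgr1, a receptor for antibody, and Cd68, a lysosomal protein, were found in 146 and 213 and in 144 and 213. Markers of both lineages were thus present, within and outside the rule. Cd8a (chromosome 6, 71373427 to 71379173, plus strand, mm10) and C1qa (chromosome 4, 136895917 to 136898803, minus strand) are protein-coding genes.

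The mixed barcodes were set beside 2 kinds of barcodes of the same library. The first were CD8 T barcodes with under 5 macrophage UMIs per 10000 (99 Ythdf2 KO and 102 WT, macrophage-poor CD8 T barcodes). The second were macrophage barcodes that passed the macrophage threshold without any Cd3 or Cd8 UMI (5536 Ythdf2 KO and 7476 WT). The 79 Ythdf2 KO and 104 WT CD8 T barcodes between 5 and 20 belonged to neither.

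Mixed barcodes were deep. In the Ythdf2 KO library they held a median of 18584 UMIs (95% interval of the median 16923 to 19749), against 8247 in macrophage-poor CD8 T barcodes and 5744 in macrophage barcodes. In the WT library the median was 14564 (13542 to 15960), against 6787.5 and 4959.5. The Ythdf2 KO median was thus 2.25 times that of the macrophage-poor CD8 T barcodes and 3.24 times that of the macrophage barcodes, and the WT median 2.15 and 2.94 times. The mixed barcodes were also above the sum of the medians of the other sets, 13991 in the Ythdf2 KO and 11747 in the WT library, by factors of 1.33 and 1.24. Mixed barcodes had to hold raw Cd8 and Cd3 UMIs and macrophage barcodes had to hold none. This choice favours deep mixed and shallow macrophage barcodes. Its part in these factors and in the raw UMI counts below was not tested. Single mixed barcodes ran from 1846 to 61725 UMIs in the Ythdf2 KO library and from 4149 to 43593 in the WT library, so the sets overlapped. Genes per barcode followed the same order, with medians of 4125 in Ythdf2 KO and 3732 in WT mixed barcodes, against 2253 and 2286 in macrophage-poor CD8 T barcodes. The mitochondrial share was not raised, with medians of 1.17% and 1.27% in mixed barcodes and 1.46% and 1.65% in macrophage-poor CD8 T barcodes.

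**Figure D1:**
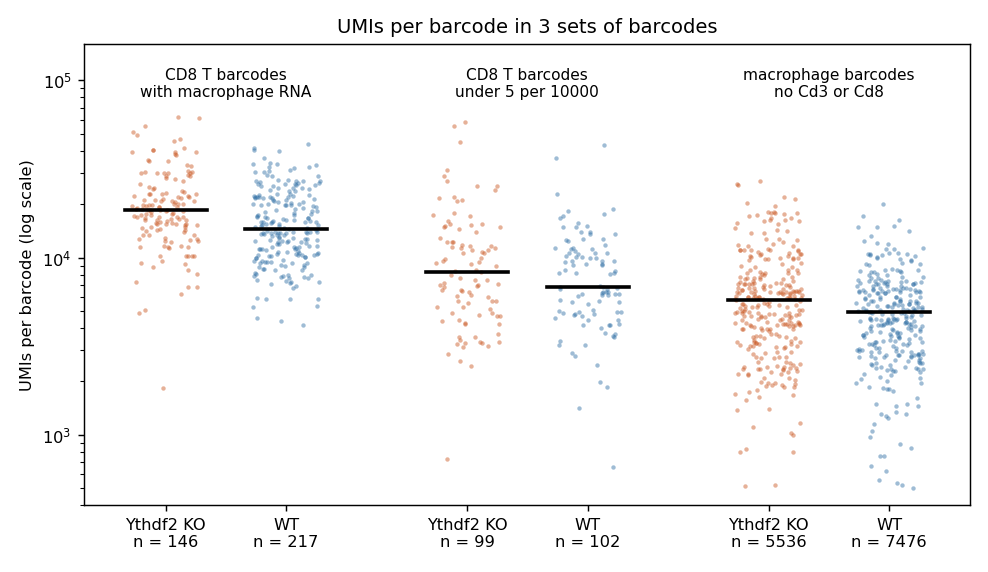
UMIs per barcode (log axis) in mixed barcodes, macrophage-poor CD8 T barcodes and macrophage barcodes of the Ythdf2 KO (orange) and WT (blue) libraries; each point is 1 barcode (for macrophage barcodes, 300 drawn at random per library) and the black bar is the median of all n. Mixed barcodes have medians of 18584 and 14564 UMIs and lie above both other sets in each library, with overlap between single barcodes.

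The T cell transcripts of a mixed barcode were close in number to those of a macrophage-poor CD8 T barcode. The macrophage transcripts of a mixed barcode exceeded those of a macrophage barcode. Over 13 T cell genes outside the rule (among them Trac, Trbc1, Cd2, Lck and Thy1), mixed barcodes held a median of 36.5 UMIs in the Ythdf2 KO library and 32 in the WT library, against 39 and 33.5 in macrophage-poor CD8 T barcodes and 0 in the macrophage barcodes of both libraries. Over 10 macrophage genes outside the rule (among them Lyz2, Cd68, Adgre1 and Ctsb), the medians were 160.5 and 125 UMIs, against 77 and 70 in macrophage barcodes and 2 and 2 in macrophage-poor CD8 T barcodes. In the plot of both sums, most macrophage-poor CD8 T barcodes and most macrophage barcodes lie along separate axes. The mixed barcodes lie in the upper right.

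**Figure D2:**
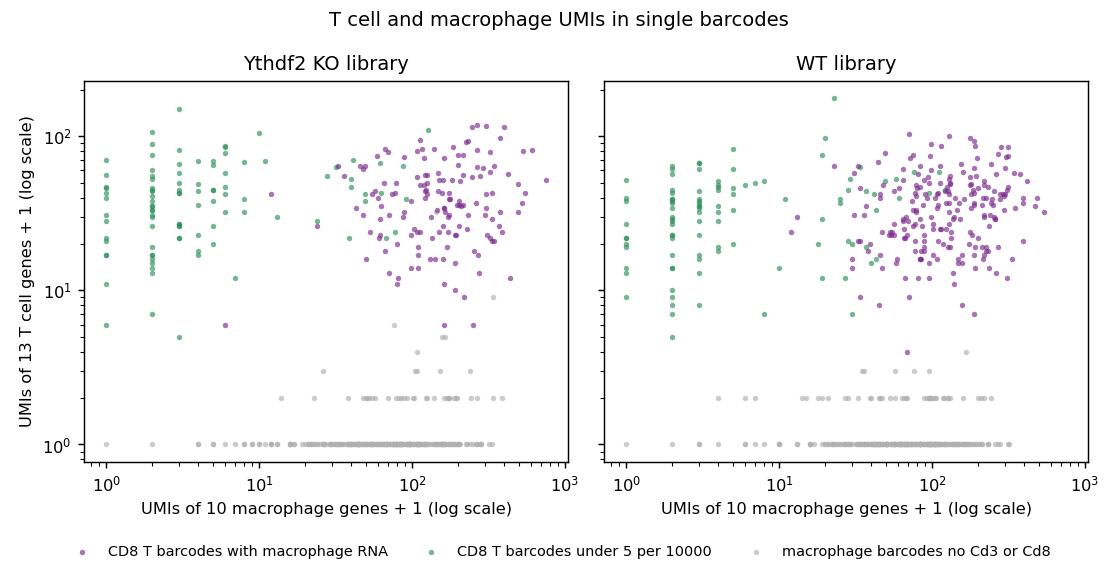
UMIs of 13 T cell genes (vertical) against UMIs of 10 macrophage genes (horizontal) per barcode, both plus 1 on log axes, with the Ythdf2 KO library on the left and the WT library on the right; macrophage barcodes are a random 300 per library. Mixed barcodes (purple) reach the T cell UMIs of macrophage-poor CD8 T barcodes (green, medians 36.5 and 32 against 39 and 33.5) and macrophage UMIs above those of macrophage barcodes (grey, 160.5 and 125 against 77 and 70).

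To describe the makeup of each barcode, its counts outside the rule genes were fitted as a mixture of the summed profile of macrophage-poor CD8 T barcodes and that of macrophage barcodes of the same library. The macrophage profile took a median of 67.0% of the UMIs of a Ythdf2 KO mixed barcode (62.1 to 71.8) and 61.2% of a WT one (55.2 to 63.9). The spread was wide, from 10.6% to 97.2% in the Ythdf2 KO and from 2.84% to 94.7% in the WT library. In the Ythdf2 KO library 7 mixed barcodes lay under 25%, 28 at 25 to 50%, 65 at 50 to 75% and 46 above 75%. In the WT library the numbers were 19, 60, 89 and 49. The median number of Cd3 UMIs was lower from each range to the next, at 48, 32, 18 and 11.5 in the Ythdf2 KO library and 22, 18, 15 and 8 in the WT library. Total UMIs showed no such order (medians of 18890, 17585, 16558 and 20436 in the Ythdf2 KO library, and of 13751, 14701, 13818 and 15227 in the WT library). The UMIs assigned to the CD8 T profile had a median of 5620.4 in Ythdf2 KO and 5423.1 in WT mixed barcodes, against 7499 and 6222.5 in macrophage-poor CD8 T barcodes. Those assigned to the macrophage profile had medians of 11900 and 8162.4, against 5361.8 and 4680.5 in macrophage barcodes. The macrophage-poor CD8 T barcodes had a median macrophage weight of 0.0001% in both libraries, the lowest value that the fit allowed. These barcodes also made up the CD8 T profile, so a low median was built in. Their 95th percentiles were 28.2% in the Ythdf2 KO and 52.85% in the WT library, and their highest values 59.7% and 69.8%. The CD8 T profile was thus not free of macrophage RNA. The CD8 T barcodes at 5 to 20 macrophage UMIs per 10000 also carried a sizeable macrophage weight, with medians of 53.6% and 36.2%. Taking those into the CD8 T profile as well lowered the medians of the mixed barcodes to 53.9% and 49.8%.

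Scrublet, which scores a barcode by its likeness to simulated sums of 2 barcodes, placed 39 of 146 Ythdf2 KO mixed barcodes (26.7%, 19.7 to 34.7) among the 8% of barcodes with the highest scores of their library. In the WT library it placed 33 of 217 there (15.2%, 10.7 to 20.7). Among macrophage-poor CD8 T barcodes these shares were 5.05% and 4.90%, and among macrophage barcodes 6.34% and 4.21%. Most mixed barcodes of both libraries lay outside the highest 8%. Droplets with several cells, cells that stuck together, engulfed material and free RNA cannot be told apart in these data.

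Macrophage RNA at this level was not particular to CD8 T barcodes. Of CD4 T barcodes (Cd4 and Cd3 UMIs, no Cd8), 55.7% of 246 in the Ythdf2 KO library (49.2 to 62.0) and 56.3% of 368 in the WT library (51.0 to 61.4) passed the macrophage threshold. The shares were 17.4% of 2269 (15.8 to 18.99) and 16.3% of 3888 (15.1 to 17.5) for NK barcodes. For B barcodes, which should lack C1q and Csf1r, they were 10.9% of 349 (7.82 to 14.6) and 17.9% of 140 (11.9 to 25.2). For neutrophil barcodes they were 23.9% of 1109 and 27.3% of 703. The intervals of the CD8 T barcodes lay above those of NK, B and neutrophil barcodes in both libraries and overlapped those of CD4 T barcodes. In each class the barcodes past the threshold were deeper than those under 5 per 10000: among NK barcodes the medians were 16825 against 9558 UMIs in the Ythdf2 KO library and 14777 against 10790 in the WT library, and among B barcodes 8846 against 2098 and 7901 against 2304.5. The part that depth plays in the order of the classes was not tested.

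**Figure D3:**
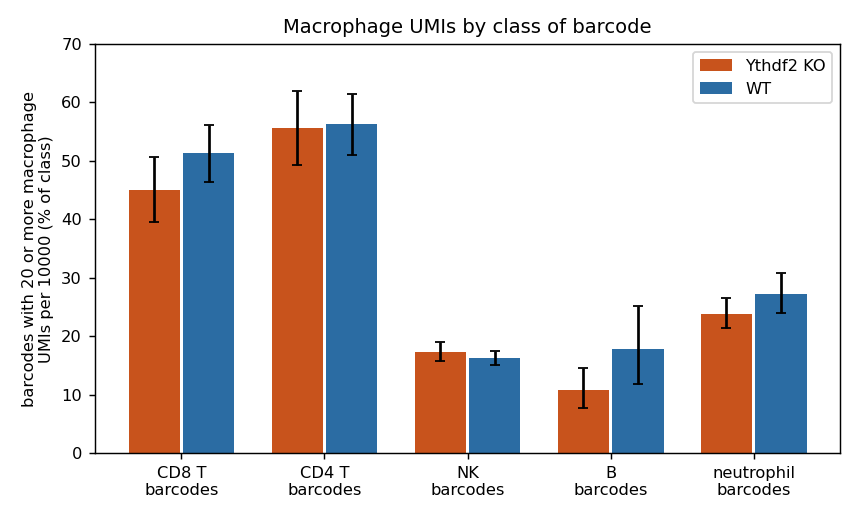
Share of barcodes (%) with 20 or more UMIs per 10000 of the 6 macrophage genes, by class of barcode, in the Ythdf2 KO (orange) and WT (blue) libraries; error bars are exact 95% binomial intervals. CD8 T (45.1% and 51.3%) and CD4 T barcodes (55.7% and 56.3%) stand above NK, B and neutrophil barcodes.

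The summed mixed barcodes were also compared, gene by gene, with a weighted sum of the 2 profiles. Fitted to the summed counts (3070003 UMIs in the Ythdf2 KO and 3581404 in the WT mixed barcodes), the macrophage weight was 65.2% and 59.3%. Of 5946 genes with at least 50 UMIs in each library, 96.6% in the Ythdf2 KO and 97.5% in the WT library were within 1.5-fold of the mixture. Of these 5946 genes, 3373 (56.7%) lay between the 2 profiles in both libraries. The weight was fitted to these same sums, and a gene of similar level in both profiles lies near the mixture at any weight. Of 6365 genes tested between the libraries, 6052 counted as shared by the 2 profiles. The shares within 1.5-fold thus cannot show whether the mixed barcodes were a sum of the profiles. Genes that separate the profiles were not tested on their own. Levels are given as CPM (UMIs of a gene per 1e6 UMIs of the summed set). At least 1.5-fold above the mixture in both libraries were 34 genes (0.572%), and at least 1.5-fold below it 11 (0.185%).

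Many of the genes above the mixture were T cell genes. Of 15 T cell identity genes, 5 were at least 1.5-fold above it in both libraries and none below, and the median log2 ratio was 0.69 in the Ythdf2 KO and 0.48 in the WT library. Of the 15 genes, 13 also made up the T cell sum described above. The profiles were sums of UMIs, so deep barcodes weighed most in them. The deepest macrophage-poor CD8 T barcode of the Ythdf2 KO library gave 58046 of that profile's 1102194 UMIs, with 52 UMIs of the T cell sum. This profile also held 154.2 CPM of 7 tumour or stroma genes, against 6.71 CPM in the WT one. The part that this makeup of the CD8 T profile plays in the ratios to the mixture was not tested. Bcl11b, a transcription factor that maintains T cell identity, had 41.4 CPM in Ythdf2 KO and 55.8 CPM in WT mixed barcodes, which was 2.53 and 1.59 times the mixture. The other 4 were Cd27, Cd5, Cd6 and Lck, a kinase of receptor signalling (1.58 and 1.58 times). Icos, a costimulatory receptor of activated T cells, had 134.2 and 151.9 CPM, 2.36 and 1.77 times the mixture. Ikzf2, Gata3 and Tnfrsf4 were also among the 34 genes above the mixture (see Foxp3 below). Of the 20 macrophage identity genes none was 1.5-fold off the mixture in both libraries, with median log2 ratios of 0.09 and 0.07. Cd68 was at 1.07 and 1.14 times the mixture, Fcgr1 at 1.06 and 1.02 times, and Trem2, a lipid receptor of tumour macrophages, at 1.26 and 1.29 times.

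Genes of classical monocytes were low for the mixture. Of 11 such genes 5 were at least 1.5-fold below it in both libraries, Chil3, Vcan, Fn1, Hp and Mgst1, and none above, with median log2 ratios of -0.49 in the Ythdf2 KO and -0.63 in the WT library. Chil3, a chitinase-like protein, had 404.2 and 279.2 CPM, 0.602 and 0.477 times the mixture. Vcan, a matrix proteoglycan, was at 0.600 and 0.436 times, and Lyz2, lysozyme, at 0.689 and 0.625 times. Lyz2 was also 1 of the 10 genes of the macrophage sum described above. Ly6c2, a surface marker of these monocytes, was at 0.865 and 0.882 times. It was not particular to myeloid barcodes here. Thinned to 2000 UMIs, it was found in 61.2% of Ythdf2 KO and 79.6% of WT macrophage-poor CD8 T barcodes. The shares of macrophage barcodes were 78.5% and 81.0%. The low values of the monocyte list rested on the macrophage profile. With macrophage barcodes of at least 40 macrophage UMIs per 10000 as the profile, the list's median log2 ratio was 0.05 in the Ythdf2 KO and -0.02 in the WT library.

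**Figure D4:**
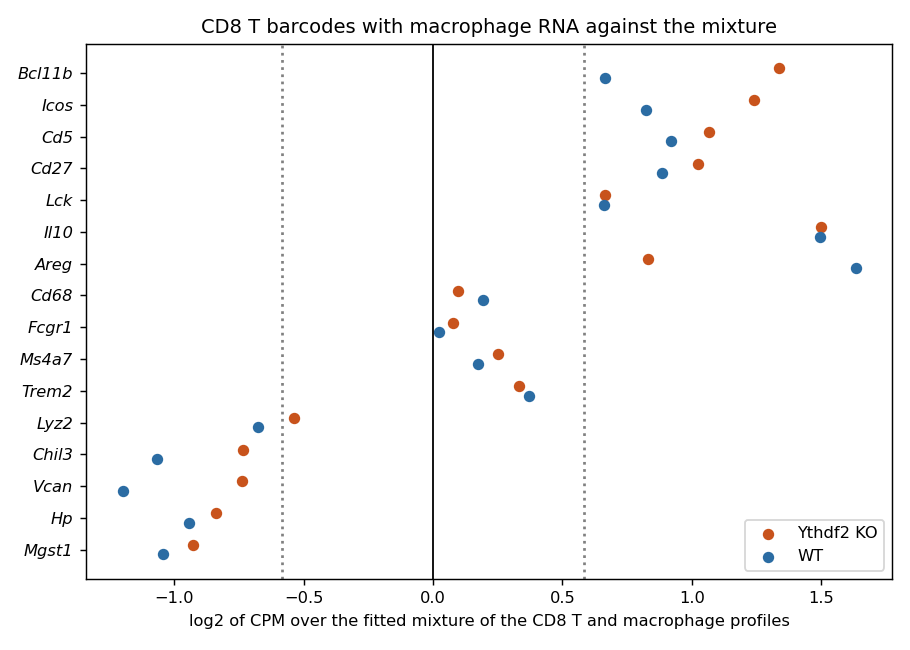
log2 of the CPM in mixed barcodes over the CPM of the fitted mixture, for the Ythdf2 KO (orange, upper point) and WT (blue, lower point) libraries; dotted lines mark 1.5-fold. The T cell genes shown, Il10 and Areg are all among the 34 genes above the mixture in both libraries. Chil3, Vcan, Hp and Mgst1 are among the 11 below it. Their places to the right and left thus follow from the choice of genes, and other genes of these lists are not shown. The macrophage identity genes shown lie nearer 0 and Lyz2 lies to the left.

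Only 1 of 5957 genes (0.0168%) was at least 2-fold above both profiles in both libraries. It was Il10, which encodes an anti-inflammatory cytokine made by macrophages and by some T cells (chromosome 1, 131019845 to 131024974, plus strand). It had 98 UMIs in 36 Ythdf2 KO and 107 UMIs in 40 WT mixed barcodes, or 31.9 and 29.9 CPM. Macrophage barcodes had 14.9 and 14.8 CPM, and macrophage-poor CD8 T barcodes 4.54 and 4.48 CPM. The 5 barcodes with the most Il10 held 40.8% and 39.3% of its UMIs. Its smaller ratio to the higher profile was 2.02, at the edge of the 2-fold limit, and under 8 other settings no gene passed. Over the settings its ratio to the mixture lay between 2.39 and 3.61 in the Ythdf2 KO and between 2.10 and 2.87 in the WT library. Areg, a growth factor of the EGF family, was 1.78 and 3.10 times the mixture, with 163 UMIs in 25 Ythdf2 KO and 187 in 20 WT mixed barcodes. The 5 highest barcodes held 57.1% and 67.4% of them. At a macrophage threshold of 50 Areg was at 1.06 times the mixture in the Ythdf2 KO library, and without the NK limit at 1.75 times in the WT library.

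Some mixed barcodes also held UMIs of genes of further cell types, which their greater depth makes easier to detect. Foxp3, the transcription factor of regulatory T cells, was found in 23 of 146 Ythdf2 KO (15.8%, 10.3 to 22.7) and 15 of 217 WT mixed barcodes (6.91%, 3.92 to 11.1). Its level was 18.9 and 9.77 CPM, against 2.72 and 7.83 in macrophage-poor CD8 T barcodes. With 58 and 35 UMIs, Foxp3 stood at 14.2 times the mixture in the Ythdf2 KO and 2.70 times in the WT library. Neither profile of the mixture was made from regulatory T cells. The part that regulatory T cell RNA plays in the excess of Icos, Ikzf2, Gata3, Tnfrsf4, Il10 and Areg over the mixture was not tested. Thinned to 2000 UMIs, Foxp3 was found in 2.76% and 1.84% of mixed barcodes and in 2.04% and 1.02% of macrophage-poor CD8 T barcodes, with overlapping intervals. The Foxp3-positive mixed barcodes were the deeper ones, with medians of 27652 and 24020 UMIs, against 17533 and 14061 in the rest, and 14 of 23 and 6 of 15 also had a Cd4 UMI. At least 3 UMIs of 7 neutrophil genes (led by S100a8 and S100a9) were found in 65 Ythdf2 KO (44.5%, 36.3 to 53.0) and 64 WT mixed barcodes (29.5%, 23.5 to 36.04). The same was true of 8.08% and 6.86% of macrophage-poor CD8 T barcodes and of 23.1% and 13.6% of macrophage barcodes, which were shallower. Per UMI the order was another: the 7 genes summed to 2031.3 CPM in Ythdf2 KO and 1037.9 CPM in WT mixed barcodes, against 2578.1 and 2038.4 CPM in macrophage barcodes. At least 3 UMIs of 5 B cell genes were found in 2 and 3 mixed barcodes. At least 3 UMIs of 5 gamma-delta T cell genes were found in 6 and 10. Mature dendritic cell genes reached 3 UMIs in 11.6% of Ythdf2 KO and 12.9% of WT mixed barcodes, against 5.05% and 13.7% of macrophage-poor CD8 T barcodes. Plasmacytoid dendritic cell genes did so in 3.42% and 1.84% of mixed barcodes, against 5.05% and 1.96% of macrophage-poor CD8 T barcodes. Mast cell and basophil genes, led by Hdc, did so in 18.5% and 6.91% of mixed barcodes, against 6.18% and 3.45% of macrophage barcodes, with Cpa3 and Ms4a2 at 0. Tumour and stroma genes reached 3 UMIs in 1 and 0 mixed barcodes. All of the 755 Hbb-bs UMIs (haemoglobin beta) of the WT mixed barcodes came from 1 barcode.

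The comparison of the Ythdf2 KO library with WT began with the targeted gene. Ythdf2 (chromosome 4, 132184912 to 132212303, minus strand) was found in 81 of 146 Ythdf2 KO and 121 of 217 WT mixed barcodes, at 44.0 and 53.9 CPM (ratio 0.816, 0.650 to 1.02). Its ratio was 0.811 in macrophage-poor CD8 T barcodes and 1.00 in macrophage barcodes. Since the deleted part is not given, these UMIs do not check the label.

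Over the mixed barcodes 138 of 6365 genes (2.17%) had a CPM at least 1.5-fold higher in the Ythdf2 KO library and 201 (3.16%) at least 1.5-fold lower, and the median log2 ratio of all these genes was -0.02. In macrophage-poor CD8 T barcodes 8.05% and 9.58% of 2621 genes passed this fold, and in macrophage barcodes 0.678% and 1.48% of 6341. The ratios in the sets share no barcode but come from the same libraries.

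Gzme and Gzmd, both granzymes, had the highest ratios among genes with at least 300 UMIs, followed by Serpinb9b, Gzmf and Gzmc. Gzmf had 1594.5 CPM in Ythdf2 KO and 284.8 CPM in WT mixed barcodes (ratio 5.598, 5.23 to 5.995), against 3397.8 and 2196.1 CPM in macrophage-poor CD8 T barcodes (1.55) and 46.8 and 60.2 CPM in macrophage barcodes (0.778). Gzme had 391.2 and 30.4 CPM in mixed barcodes (12.9, 10.6 to 15.8), Gzmd 552.8 and 63.1 CPM (8.76, 7.62 to 10.1) and Gzmc 838.4 and 219.7 CPM (3.82, 3.52 to 4.14). These 4 proteases of the killing granules are close copies in a cluster on chromosome 14, so reads shared between them may have been divided by the authors' counting. Serpinb9b, a granzyme inhibitor of the serpin family, had 96.4 and 12.0 CPM (8.03, 5.82 to 11.3). Few barcodes carried most of this signal: the 5 with the most Gzmf held 65.2% of its UMIs in the Ythdf2 KO and 57.5% in the WT library, and without them the ratio was 4.73. Without the 5 highest barcodes the ratio of Serpinb9b was 19.1. That value rests on few WT UMIs, since those 5 held 31 of the 43 in the WT library. Gzmc to Gzmf together reached 20 UMIs per 10000 in 30 Ythdf2 KO (20.5%, 14.3 to 28.02) and 14 WT mixed barcodes (6.45%, 3.57 to 10.6). The shares were 28.3% and 11.8% of macrophage-poor CD8 T barcodes and 1.46% and 1.94% of macrophage barcodes. With the NK limit lifted, the ratios of Gzmc, Gzmd, Gzme and Gzmf in mixed barcodes were 1.15, 1.67, 1.73 and 1.71 and that of Serpinb9b was 2.70, so the size of these differences depended on that limit. Without the highest Scrublet scores they were 2.64, 6.34, 7.97, 3.28 and 7.50 in the same order of genes.

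Other killing genes differed less. Of 16 cytotoxic and effector genes tested, 6 were at least 1.5-fold higher and 3 at least 1.5-fold lower in the Ythdf2 KO mixed barcodes, beside 2.17% and 3.16% of all genes tested, with a median log2 ratio of 0.12. Gzmb, the main death-inducing granzyme, had 1795.8 and 1491.9 CPM (1.20, 1.16 to 1.25), and its ratio was 0.976 without the NK limit. Thinned to 2000 UMIs per barcode, 69.0% of Ythdf2 KO and 65.4% of WT mixed barcodes held a Gzmb UMI (unthinned 89.7% and 93.1%), against 8.57% and 14.7% of macrophage barcodes. Ifng, the interferon of activated T cells, had 443.6 and 236.2 CPM (1.88, 1.72 to 2.05), while macrophage-poor CD8 T barcodes had 973.5 and 1040.4 CPM (0.936). Thinned to 2000 UMIs, an Ifng UMI was found in 28.3% of Ythdf2 KO and 17.05% of WT mixed barcodes. In macrophage-poor CD8 T barcodes these shares were 45.9% and 25.5%, so by this measure Ifng was higher in the Ythdf2 KO library there too. The 5 mixed barcodes with the most Ifng held 53.3% and 50.7% of its UMIs, and without them the ratio was 1.78. The ratio of Ifng in mixed barcodes was 2.86 at a macrophage threshold of 10 and 3.38 at one of 50. The chemokine Ccl5 had 1004.9 and 2383.1 CPM (0.422, 0.405 to 0.439) and was also low in macrophage-poor CD8 T barcodes (0.308). Xcl1, a chemokine that attracts cross-presenting dendritic cells, had 33.6 and 64.2 CPM (0.522, 0.410 to 0.662). Eomes and Gzmk, genes of memory-like CD8 T cells, had ratios of 0.424 and 0.470.

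Because the macrophage weight differed between the libraries, T cell genes were also scaled to the 13 T cell genes. Per 1000 of those UMIs, 39 of 162 genes that were at least 10-fold higher in the CD8 T than in the macrophage profile (24.1%) were at least 1.5-fold higher in the Ythdf2 KO library and 9 (5.56%) lower. On this scale Gzmf had 799.3 and 131.6 UMIs (ratio 6.07), Gzmb 900.2 and 689.6 (1.31), Ifng 222.4 and 109.2 (2.04) and Pdcd1, the checkpoint receptor PD-1, 42.0 and 27.0 (1.56, 1.29 to 1.88). In macrophage-poor CD8 T barcodes the ratio of Pdcd1 was 1.64. After thinning to 2000 UMIs a Pdcd1 UMI was found in 10.3% of Ythdf2 KO and 11.5% of WT mixed barcodes (unthinned 58.9% and 47.0%), which shows no such difference. Lag3, another checkpoint receptor, had 66.1 and 44.4 UMIs (1.49). Of 13 checkpoint and exhaustion genes tested, 3 were past 1.5-fold higher on this scale and 1 lower, Tox, a transcription factor of exhausted T cells. These counts lay near the shares for the 162 genes above, 24.1% higher and 5.56% lower. Tcf7, a factor of naive and stem-like T cells, had 11.3 and 15.2 UMIs (0.740, 0.541 to 1.00). In CPM 4 of the 11 tested naive and memory genes were at least 1.5-fold lower in the Ythdf2 KO mixed barcodes and none higher, beside 3.16% and 2.17% of all genes tested. Per 1000 UMIs of the T cell sum only 2 of the 11 were lower and none higher. The median log2 ratio of the list was -0.37 in CPM and -0.25 on the T cell scale.

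Several cell cycle genes were higher in the Ythdf2 KO mixed barcodes. Of 14 tested, 7 were at least 1.5-fold higher in CPM and none lower, with a median log2 ratio of 0.62, against 2.17% of all genes tested. Mki67, a marker of dividing cells, had 65.8 and 36.02 CPM (1.83, 1.46 to 2.30), Top2a, a topoisomerase, 114.3 and 70.4 CPM (1.62, 1.38 to 1.92) and Cenpf, a kinetochore protein, 41.7 and 12.3 CPM (3.39, 2.39 to 4.90). Mki67 was found in 41 of 146 Ythdf2 KO and 42 of 217 WT mixed barcodes, and after thinning to 2000 UMIs in 8.97% (4.86 to 14.8) and 5.99% (3.23 to 10.0), where the intervals overlap. A shift of the list was measured in the other sets as well. Per 1000 UMIs of the T cell sum, 9 cell cycle genes were higher in mixed barcodes (median log2 ratio 0.74) and 6 in macrophage-poor CD8 T barcodes (0.54), and none was lower. Per 1000 UMIs of the macrophage sum, 7 were higher in mixed barcodes (0.63) and 6 in macrophage barcodes (0.48), and none was lower. In CPM, 8.05% of all genes tested were at least 1.5-fold higher in macrophage-poor CD8 T barcodes and 0.678% in macrophage barcodes. Shares over all genes on the 2 scales are not given here. For the mixed barcodes the T cell scale itself moved the median log2 ratio from 0.62 in CPM to 0.74. Over other settings the ratio of Mki67 lay between 1.26 (no NK limit) and 3.07 (macrophage threshold of 50).

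The macrophage RNA of the mixed barcodes differed between the libraries as that of the macrophage barcodes did for several genes. Apoe, a lipid carrier made by tumour macrophages, had 596.7 CPM in Ythdf2 KO and 1758.2 CPM in WT mixed barcodes (0.339, 0.322 to 0.358), against 1040.0 and 2800.9 CPM in macrophage barcodes (0.371). Arg1, an arginine-degrading enzyme of suppressive macrophages, had 98.0 and 287.0 CPM (0.342, 0.299 to 0.389), with 0.455 in macrophage barcodes. Gpnmb had 38.8 and 103.3 CPM (0.375) and 0.467 in macrophage barcodes. Apoe was found in 33.1% of Ythdf2 KO (25.5 to 41.4) and 59.9% of WT mixed barcodes (53.1 to 66.5) thinned to 2000 UMIs, and Arg1 in 14.5% and 28.6%. Unthinned, these shares were 63.7% and 79.7% for Apoe and 31.5% and 58.5% for Arg1. Il1b, an inflammatory cytokine, had 1553.1 and 816.4 CPM (1.90, 1.82 to 1.99; 1.71 in macrophage barcodes), and Pf4, a chemokine, 1100.3 and 662.0 CPM (1.66, 1.58 to 1.75; 1.86). Ace, angiotensin-converting enzyme, had 67 UMIs in 29 Ythdf2 KO and 17 UMIs in 9 WT mixed barcodes (4.60, 2.67 to 8.35, and 4.73 in macrophage barcodes). Its ratio lay between 2.91 and 12.2 over other settings. The highest value was reached without the 5 highest barcodes, which held 13 of the 17 WT UMIs. Cxcl9, a chemokine that attracts CXCR3-positive T cells, had 130.9 and 93.8 CPM (1.40, 1.20 to 1.62), against 0.990 in macrophage barcodes. The acute-phase gene Saa3 had 27.0 and 168.6 CPM (0.160), but 1 WT barcode held 447 of its 604 UMIs, and without the 5 highest barcodes of each library the ratio was 0.650. Without the highest Scrublet scores it was 0.0712 and without the NK limit 0.342.

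Macrophage genes were also scaled to the sum of the 10 macrophage genes. Per 1000 of those UMIs, 10 of 140 genes at least 10-fold higher in the macrophage than in the CD8 T profile (7.14%) were at least 1.5-fold higher in the Ythdf2 KO mixed barcodes and 13 (9.29%) lower. In CPM, of 13 macrophage activation genes tested, 4 were at least 1.5-fold higher and 5 at least 1.5-fold lower in the Ythdf2 KO mixed barcodes, beside 2.17% and 3.16% of all genes tested. The 12 phagocytosis genes tested held none higher and 1 lower, Axl, a receptor for dying cells (25.4 and 49.4 CPM, 0.514, 0.389 to 0.675). Its ratio in macrophage barcodes was 0.528. None of 14 genes of T cell and macrophage contact and none of 9 MHC class II genes passed 1.5-fold in either direction. Of 15 interferon response genes tested only Isg15, a ubiquitin-like protein, did (1162.2 and 1873.8 CPM, 0.620, with 0.630 in macrophage barcodes). Of the neutrophil genes, S100a9 had 1045.0 and 474.4 CPM in mixed barcodes (2.20, 2.08 to 2.34) and a ratio of 1.29 in macrophage barcodes. Its ratio was 1.14 without the highest Scrublet scores and 2.999 without the 5 highest barcodes.

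The rest of the 10 highest ratios among genes with at least 300 UMIs were Mmp13, a collagenase (3.13), Nrgn (2.78), Csf1, the ligand of Csf1r (2.56), the histone gene Hist1h2ap (2.30) and the antisense transcript BC018473 (2.22). Hist1h2ap has near-identical copies, and the handling of strand in the counting is not given in the sources used here, so these last values are uncertain. Csf1 had 73.0 and 28.5 CPM in mixed barcodes and 82.6 and 35.8 CPM in macrophage-poor CD8 T barcodes. Among the 10 lowest, beside the haemoglobin genes of the single WT barcode and those already named, were Pmepa1 (0.331), Id1 (0.362) and AA467197 (0.490). Pmepa1 and Id1, both targets of TGF-beta family signalling, had 28.01 and 84.6 CPM and 34.9 and 96.3 CPM.

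**Figure D5:**
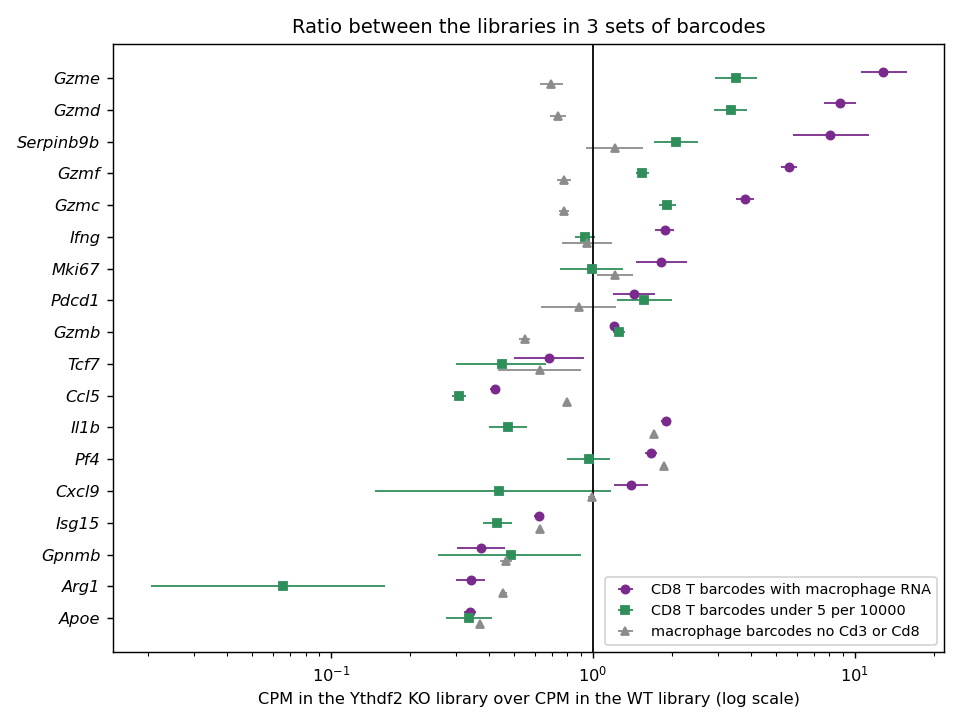
CPM in the Ythdf2 KO library over CPM in the WT library (log axis) for 18 genes in mixed barcodes (purple circles), macrophage-poor CD8 T barcodes (green squares) and macrophage barcodes (grey triangles); bars are 95% intervals for counting error. Gzme and Gzmd lie farthest to the right in mixed barcodes (12.9 and 8.76), and Apoe, Arg1 and Gpnmb lie left of 1 in all 3 sets.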

How the data were processed

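The deposited 10x matrices hold raw counts of UMIs per gene and barcode, made by the authors with Cell Ranger. Its version is 6.1.1 per the file headers but 5.0.1 per the submitters' processing notes. Those also list Seurat (4.0.4) and the build mm10. Libraries came from a 5′ kit, per the labels' protocols. After the filters the Ythdf2 KO barcodes held 133055191 UMIs and the WT barcodes 168317001. Counts were summed over barcodes and divided by the total to give CPM. No pseudocount was used for ratios, which have exact conditional binomial intervals, and shares have Clopper-Pearson intervals. Mixture weights were fitted by maximum likelihood, with 0.5 counts added per gene to each profile. The weights and the fold calls were tested on simulated data. The simulated barcodes were drawn from the same 2 profiles, and the simulated sums held counting error only. These simulations checked the code. They did not check whether the mixture or the intervals suit real barcodes, where few barcodes can hold most UMIs of a gene. Ratios between libraries used genes with at least 100 UMIs over both libraries. PCR duplicates are collapsed by UMI, but droplets are not independent samples. Doublets were scored with Scrublet in scanpy 1.11.5 (Python 3.11.15, numpy 2.4.6, scipy 1.17.1) and not removed.

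The barcodes, gene lists and tests were chosen with earlier results of these data known. Named were the genes of the rule, up to 4 genes per list by UMIs, the 10 highest and 10 lowest ratios between libraries among genes with at least 300 UMIs (without mitochondrial, ribosomal, sex-linked and receptor variable genes), genes above both profiles, and a few genes fixed by name. Other list genes named in the text were chosen after their values were seen. Coordinates are from GENCODE vM21 (mm10). Filters, rule thresholds, profiles, scaling and minimum counts were varied. Mx1 was not analysed here.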

Additional observations from a re-analysis of the deposited data

Results flagged for a closer look

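Gzme and Gzmd, granzymes of the killing granules, lay on opposite sides of the fitted mixture in the 2 libraries. Gzme was at 1.89 times the mixture in the Ythdf2 KO and 0.383 times in the WT mixed barcodes. Gzmd was at 1.64 times in the Ythdf2 KO and 0.459 times in the WT mixed barcodes. The difference between the libraries was not tested, since each genotype is 1 library. The 5 barcodes with the most UMIs held 69.6% and 55.0% of the Gzme and 65.9% and 63.7% of the Gzmd of the Ythdf2 KO and WT mixed barcodes.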

How the results depend on the processing

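No paired analysis was possible because each genotype is 1 library. Under the other settings 63 values of the shares, depths, macrophage weights and gene counts stayed within their interval, or within 1.5 times for counts of genes, and 14 did not. Of the ratios of single genes and of the monocyte list, 229 stayed within their interval, 107 moved outside it and 11 reversed. Lifting the NK limit raised the median UMIs to 22746 in Ythdf2 KO and 19705.5 in WT mixed barcodes. A CD8 T profile that took in barcodes up to 20 macrophage UMIs per 10000 gave macrophage weights of 53.9% and 49.8%. The count of genes 1.5-fold apart was 339 in the report, 704 with a minimum of 50 UMIs per gene and 99 with 3 times the minimum, and higher genes made up 40.7% of calls in the report, 45.5% with median of ratios scaling and 50.5% with 3 times the minimum. The gene above both profiles was lost (0 genes) at macrophage thresholds of 10 and 50, Cd8 and Cd3 sums of 3, no NK limit, removal of the highest Scrublet scores, 3 times the minimum, the stricter macrophage profile and removal of shared barcodes. The last 2, and leaving out the 5 highest barcodes per gene, were chosen after seeing the data. At a macrophage threshold of 50 per 10000, the Gzmb ratio between the libraries was 0.933, and the ratios to the mixture were 1.35 for Chil3 and 1.22 for Vcan in the Ythdf2 KO and 1.09 for Lyz2 and 1.02 for Chil3 in the WT library, with a median log2 ratio of the monocyte list of 0.16 in the Ythdf2 KO library. Without the NK limit the Gzmb ratio was 0.976. With the stricter macrophage profile Chil3 was at 1.22 and 1.00 times the mixture in the Ythdf2 KO and WT libraries, Vcan at 1.20 in the Ythdf2 KO library and the monocyte list at 0.0545 there. The causes were not tested.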

Other observations

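Transcripts outside the gene lists also departed from the mixture. Gm42418 and AY036118, which overlap ribosomal RNA sequence, had 3222.1 and 188.9 CPM in Ythdf2 KO and 4643.4 and 227.8 CPM in WT mixed barcodes. Gm42418 was at 0.547 and 0.657 times the mixture and AY036118 at 0.399 and 0.488 times. Xcl1 was at 0.493 and 0.409 times. The heat shock gene Hspa1b had 202.0 CPM in Ythdf2 KO and 391.5 CPM in WT mixed barcodes (0.516, 0.469 to 0.567), and ratios of 0.243 in macrophage-poor CD8 T barcodes and 0.672 in macrophage barcodes. Il17a had 4 UMIs in 3 Ythdf2 KO and 49 UMIs in 6 WT mixed barcodes, 36 of them in 1 barcode.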
